A study of Mus musculus with 6 samples.

Results

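Syt1, Cdhr1, Extl1, Colq, Htra4, Enpp2 and Spint1 are 7 of the 23358 gene entries counted by RNA-seq in 6 spontaneous tumors of NT3 mice. They were taken by name and were chosen by the study's own expression comparisons, which presented them as raised in NT3 tissue, and none of them is known chiefly for stratified epithelium. Those comparisons set NT3 tissue against control tissue and were not analysed here, so the levels of the 7 genes in the tumors are given as a description, and tests were run only between tumors, by Cre line and by body site. All 7 were found in the table and all 7 had enough counts to be tested.

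Every tumor carried NT3, a form of the kinase NIK (gene Map3k14) without the domain that binds TRAF3, inserted at ROSA26 behind a floxed stop and switched on by Cre. The Osx-Cre;NT3 line (tumors 13, 18 and 25) used an Osterix-driven, doxycycline-repressed Cre in mice of mixed CD1 and C57Bl/6J stock, with doxycycline chow given until weaning, and the FSP1-Cre;NT3 line (tumors 27, 29 and 36) used a Cre driven by the fibroblast-associated FSP1 (S100a4) promoter, also known to be active in myeloid cells, and its Cre mice were kept on FVB/n while the NT3 allele of both lines was kept on C57Bl/6J. All mice were female. Osx-Cre;NT3 tumors came from the trunk after latencies of 115 to 168 days, FSP1-Cre;NT3 tumor 29 from the trunk after 72 days, and FSP1-Cre;NT3 tumors 27 and 36 from the perineal region after 101 and 52 days. Line, background strain, latency and, except for tumor 29, site therefore cannot be told apart.

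The 7 genes belong to different pathways. NIK acts upstream of IKKα and drives processing of the NF-κB2 precursor p100 to p52, the alternative NF-κB pathway, and TRAF3 normally keeps NIK low. Syt1 encodes synaptotagmin 1, the calcium sensor of fast transmitter release in neurons, and Cdhr1 a cadherin-related protein of photoreceptor outer segments. Extl1 encodes a glycosyltransferase of the exostosin family, which builds heparan sulfate chains. Colq is the collagen-like tail that anchors acetylcholinesterase in the basal lamina of the neuromuscular junction. Htra4 is a secreted serine protease known from placenta, Enpp2 (autotaxin) a secreted enzyme that makes the lipid mediator lysophosphatidic acid (LPA), and Spint1 (HAI-1) a Kunitz-type membrane inhibitor of matriptase and of hepatocyte growth factor activator.

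Libraries held 51824408 to 163297772 counts, so each of the 7 genes was far above the counting limit, and precision is set by the 6 tumors. The unit CPM stands for counts divided by the TMM-adjusted size of each library. The summed level of 6 basal keratinocyte markers was 5690 CPM in tumor 36 and 9960 to 14200 CPM in the other 5 tumors. Tumor 36 stood apart in other markers as well. Its 6 simple epithelium markers summed to 4760 CPM against 621 to 1190 CPM elsewhere, its 6 smooth muscle and myoepithelium markers to 2670 CPM against 246 to 558 CPM, and its 11 skeletal muscle markers, led by Des, to 388 CPM against 34.4 to 124 CPM. In tissue RNA of this kind, fewer cells of a type and less RNA per cell cannot be told apart. For the 7 genes, results that rest on tumor 36 are given with and without it. Fold changes and calls of other named genes are given only with it, also where tumor 36 holds most of the signal.

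Promoter sequences are shown for the members that RefSeq windows cover, because the transgene acts on NF-κB and because Extl1 and Syt1 followed each other across tumors. Windows of 300 bases (build GRCm38.p6, 250 bases before to 50 bases after the annotated start, on the gene's own strand) are given for 4 members, Syt1, Cdhr1, Extl1 and Spint1. Windows of Colq, Htra4 and Enpp2 were not used here. The loose κB consensus of 10 bases was searched on both strands, and overlapping matches were allowed. Capitals mark the matches, and sequences run 5′ to 3′. The windows lie at chr14:37098298-37098597 (Cdhr1, minus strand), chr4:134372498-134372797 (Extl1, minus), chr10:109010926-109011225 (Syt1, minus) and chr2:119237110-119237409 (Spint1, plus).
Cdhr1: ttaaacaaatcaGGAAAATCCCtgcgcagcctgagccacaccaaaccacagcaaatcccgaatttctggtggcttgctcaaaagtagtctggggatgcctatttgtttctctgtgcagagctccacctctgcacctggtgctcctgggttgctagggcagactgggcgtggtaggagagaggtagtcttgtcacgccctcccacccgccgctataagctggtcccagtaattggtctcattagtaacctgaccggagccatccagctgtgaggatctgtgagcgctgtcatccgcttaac
Extl1: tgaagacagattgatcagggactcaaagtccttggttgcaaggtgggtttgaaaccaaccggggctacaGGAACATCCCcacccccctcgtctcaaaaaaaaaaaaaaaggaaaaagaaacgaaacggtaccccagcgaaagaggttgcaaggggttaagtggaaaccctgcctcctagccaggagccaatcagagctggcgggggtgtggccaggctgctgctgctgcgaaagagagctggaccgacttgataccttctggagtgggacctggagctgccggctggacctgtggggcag
Syt1: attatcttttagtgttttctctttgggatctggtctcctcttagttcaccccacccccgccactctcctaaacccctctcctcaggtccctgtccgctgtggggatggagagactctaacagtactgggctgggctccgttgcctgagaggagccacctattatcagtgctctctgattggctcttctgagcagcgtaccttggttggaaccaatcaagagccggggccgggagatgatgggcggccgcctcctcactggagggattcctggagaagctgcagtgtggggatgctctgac
Spint1: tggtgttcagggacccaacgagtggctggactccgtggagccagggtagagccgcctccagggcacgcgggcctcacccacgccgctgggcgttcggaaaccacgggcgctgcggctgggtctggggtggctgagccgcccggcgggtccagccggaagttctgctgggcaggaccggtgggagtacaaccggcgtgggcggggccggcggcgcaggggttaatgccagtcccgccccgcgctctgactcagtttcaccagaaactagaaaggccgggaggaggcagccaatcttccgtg

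Cdhr1 held 1 match, GGAAAATCCC, from base -238 to base -229 relative to the start, and Extl1 held 1 match, GGAACATCCC, from base -181 to base -172. Both read as the consensus on the opposite strand. Syt1, in this window and in a second one, and Spint1 held none. A match was present in 8.46% of all 32851 windows, and in at least one window of 9.55% of 27025 genes. For scale, the textbook NF-κB target Nfkbia held 1 match, GGAAATTCCC, from base -29 to base -20, and 3 windows of Nfkb2, another such target, held 3, 2 and 1 matches. The last 2 of these windows overlap, and the GGGACTTTCC found in both is the same site. These are matches of letters, not measured binding.

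Compared per length, with the deposited RPKM (reads scaled to transcript length and library size), the order of the 7 levels by mean was Syt1 (50.7 ± 19.6 RPKM, SD, n = 6), Spint1 (42.2 ± 6.49), Extl1 (38.8 ± 17.9), Cdhr1 (24.8 ± 9.96), Enpp2 (13.9 ± 11.4), Colq (5.49 ± 2.56) and Htra4 (4.34 ± 1.94). Every neighbouring pair in this order had overlapping ranges. Syt1 was the highest of the 7 in 5 tumors but stood behind Spint1 and Enpp2 in tumor 36. Extl1 exceeded Cdhr1 in all 6 tumors, whereas Spint1 exceeded Extl1 only in tumors 18 and 36. Tumor 25 carried the lowest Enpp2 level of the 6 tumors, 1.36 RPKM, which was below its own Colq (7.48) and Htra4 (5.02).

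**Figure D1:**
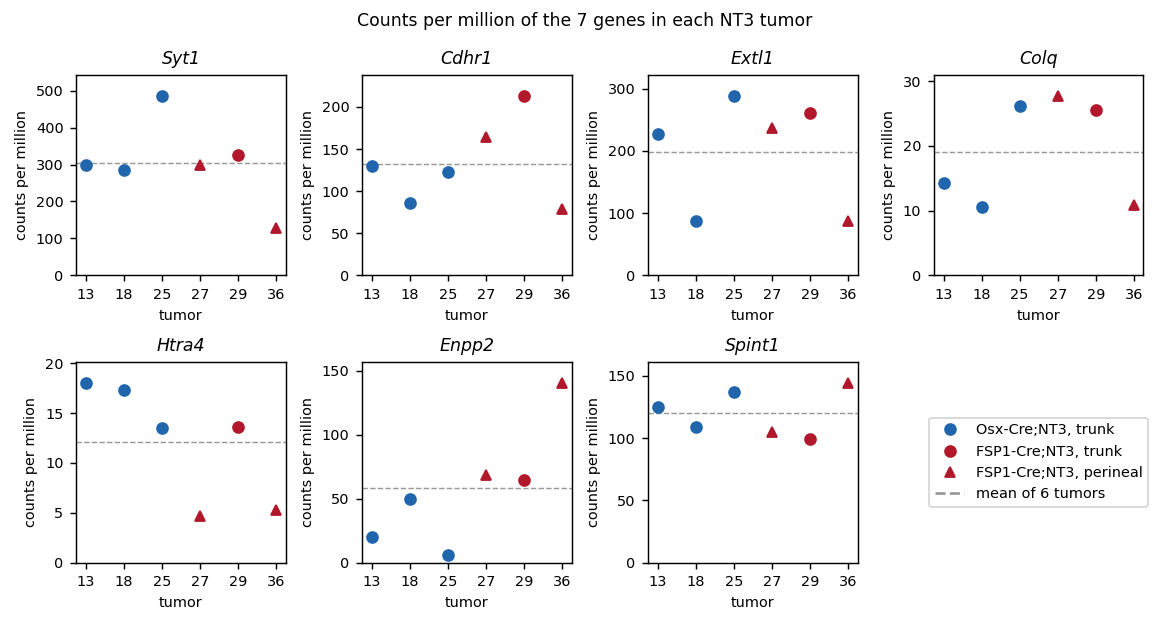
TMM-scaled CPM (y axis, from 0) of each of the 7 genes in the 6 tumors (x axis), coloured by Cre line, with triangles for perineal tumors and a dashed line at the mean. Tumor 36 is the lowest for Syt1, Cdhr1 and Extl1 and the highest for Enpp2 and Spint1, and both perineal tumors lie at about 5 CPM for Htra4.

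Syt1 (chr10:108497650-109010975, mm10, as are all gene positions here) reached 300, 286 and 486 CPM in Osx-Cre;NT3 tumors 13, 18 and 25, and 300, 325 and 128 CPM in FSP1-Cre;NT3 tumors 27, 29 and 36. In 4 tumors it lay within a narrow band around the mean of 304 ± 114 CPM (SD, n = 6), with tumor 25 above it and tumor 36 below it, and the lines overlapped. The log2 fold change of FSP1-Cre;NT3 over Osx-Cre;NT3 was -0.51 (SE 0.40, adjusted p = 0.6, edgeR) and moved to -0.19 without tumor 36.

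Cdhr1 (chr14:37077849-37098311) was at 130, 85.5 and 123 CPM in the Osx-Cre;NT3 tumors and at 164, 213 and 79 CPM in FSP1-Cre;NT3 tumors 27, 29 and 36. Tumors 27 and 29 held the highest levels and tumor 36 of the same line the lowest, so the lines overlapped (log2 fold change 0.43, SE 0.38, adjusted p = 0.639, edgeR). Without tumor 36 the log2 fold change was 0.74 (adjusted p = 0.68). Its mean was 132 ± 50.3 CPM (SD, n = 6).

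Extl1 (chr4:134356373-134372547) fell into a high and a low set that crossed the lines. Its level was 227, 87.7 and 288 CPM in the Osx-Cre;NT3 tumors and 236, 260 and 86.4 CPM in tumors 27, 29 and 36. Tumors 18 and 36, the longest and the shortest latency, were low, and the other 4 lay between 227 and 288 CPM. The line means were 201 ± 103 and 194 ± 94.1 CPM (SD, n = 3 each), with a log2 fold change of -0.05 (95% interval -1.35 to 1.25) whose sign turned under other scalings and, to 0.30, without tumor 36.

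Colq (chr14:31523084-31577383) was low in 3 tumors and higher in 3. It reached 14.3, 10.5 and 26.1 CPM in the Osx-Cre;NT3 tumors and 27.7, 25.5 and 10.8 CPM in tumors 27, 29 and 36. Tumors 18 and 36 were again the lowest, and each line held both low and high tumors (log2 fold change 0.33, SE 0.47, adjusted p = 0.781, edgeR, and 0.65 without tumor 36).

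Spint1 (chr2:119237360-119249513) varied least. Its highest and lowest tumors differed 1.44-fold, with 125, 109 and 137 CPM in Osx-Cre;NT3 tumors and 105, 99.6 and 144 CPM in tumors 27, 29 and 36. The lines overlapped throughout, and the log2 fold change between them was -0.09 with a 95% interval from -0.59 to 0.41 (-0.27 without tumor 36). Its coefficient of variation was 0.150, against 0.375 to 0.481 for Syt1, Cdhr1, Extl1, Colq and Htra4 and 0.812 for Enpp2. This is the SD of CPM over all tumors divided by their mean, with the line ignored.

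Enpp2 (chr15:54838898-54920146) varied most, over a 24.6-fold range. Osx-Cre;NT3 tumors 13, 18 and 25 held 20.2, 49.8 and 5.69 CPM, and FSP1-Cre;NT3 tumors 27, 29 and 36 held 68.7, 64.1 and 140 CPM. Each FSP1-Cre;NT3 tumor was above each Osx-Cre;NT3 tumor, the trunk tumor 29 included. The means were 91.0 ± 42.6 and 25.2 ± 22.5 CPM (SD, n = 3 each), 3.6-fold apart. The log2 fold change was 1.85 (SE 0.75, 95% interval 0.08 to 3.62, unadjusted p = 0.0432, adjusted p = 0.458, edgeR), which did not pass adjustment, and DESeq2 gave an adjusted p of 0.152. Without tumor 36 the log2 fold change was 1.39, and without tumor 18, the highest of the Osx-Cre;NT3 tumors, 2.81, where DESeq2 gave an adjusted p of 0.00155. Among trunk tumors alone, with 1 FSP1-Cre;NT3 tumor, it was 1.33 (SE 1.01).

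Htra4 (chr8:25024928-25038962) divided the tumors by site. It was at 4.64 and 5.32 CPM in perineal tumors 27 and 36, and at 18, 17.3, 13.5 and 13.6 CPM in trunk tumors 13, 18, 25 and 29. The FSP1-Cre;NT3 trunk tumor 29 stood with the Osx-Cre;NT3 trunk tumors, and the lowest trunk tumor was 2.54-fold above the highest perineal one. The means were 4.98 ± 0.481 (SD, n = 2) and 15.6 ± 2.39 CPM (SD, n = 4). The log2 fold change of perineal over trunk was -1.65 (SE 0.29, 95% interval -2.34 to -0.97, unadjusted p = 0.000681, rank 23 of 16971 genes by p). With edgeR it did not pass adjustment (adjusted p = 0.263, the lowest value any gene reached), whereas DESeq2 called it (log2 fold change -1.66, adjusted p = 4.41e-06). The DESeq2 call held without any 1 of the 6 tumors, with adjusted p from 4.7e-06 to 0.0125. Without tumor 27 or 36 (adjusted p = 0.00266 and 0.0125) the perineal arm is 1 tumor, assumed to vary as the trunk tumors do. Within FSP1-Cre;NT3 tumors the log2 fold change was -1.46 (SE 0.46), and without tumor 36 it was -1.75. By line it was -1.05 (SE 0.46, adjusted p = 0.458, edgeR), with overlapping lines.

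**Figure D2:**
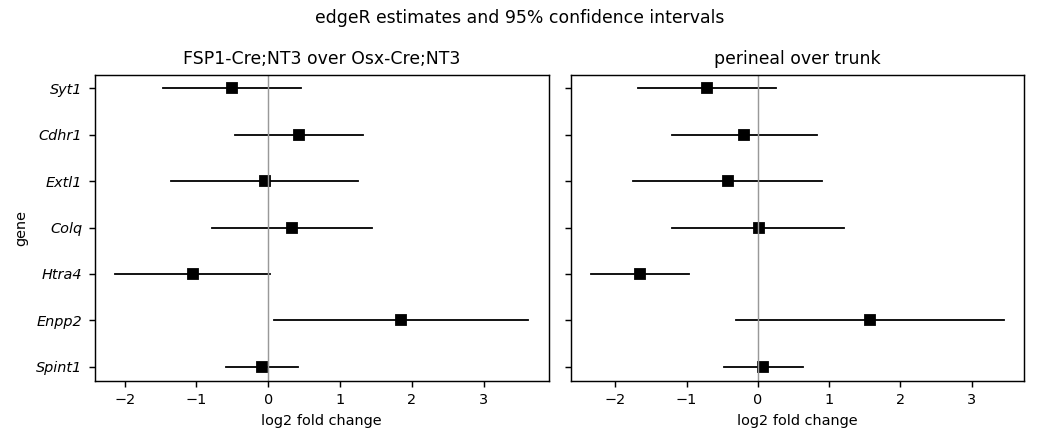
Log2 fold change (x axis) of each gene (y axis) for FSP1-Cre;NT3 over Osx-Cre;NT3 (left) and perineal over trunk (right), as squares with 95% confidence intervals from edgeR. Enpp2 by line (0.08 to 3.62) and Htra4 by site (-2.34 to -0.97) are the intervals that do not include 0.

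Across the 7 genes, the line comparison gave 0 calls at an adjusted p under 0.05 with edgeR, where 0% of the 16415 genes tested were called. At an unadjusted p under 0.05 it gave 1, Enpp2, beside 10.8% of all genes (7.31% for higher levels in FSP1-Cre;NT3), and DESeq2 called 0 of 7 beside 2.56%. By site, edgeR again called 0 of 7, beside 0% of 16971 genes. Htra4 was the 1 member at an unadjusted p under 0.05, beside 10.5% of all genes (1.63% for lower levels in perineal tumors), and the 1 member called by DESeq2, beside 3.56% (0.23% for lower levels). Enpp2 was also higher in both perineal tumors than in any trunk tumor (log2 fold change 1.57, SE 0.80, adjusted p = 0.537, edgeR), and the value was 0.98 without tumor 36 and 0.70 with line as a covariate. Groups did not overlap for 17% of genes by line (9.03% higher in FSP1-Cre;NT3) and for 19.6% by site (10.3% higher and 9.36% lower in perineal tumors). The median log2 fold change was -0.05 by line and -0.19 by site over the 7 genes, and 0.0146 and -0.0196 over all genes. For the other 5 genes the site values ran from -0.71 (Syt1, -0.22 without tumor 36 and -1.48 without tumor 27) to 0.07 (Spint1), and the widest intervals, those of Extl1, reached from -1.75 to 0.90. Tumor 36 was the lowest of the 6 for Syt1, Cdhr1 and Extl1 and the highest for Enpp2 and Spint1, positions it held for 23.8% and 24.8% of all genes.

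Syt1 stood above its relatives. Of 17 synaptotagmins 12 were tested by line and 8 stayed under 1 CPM in every tumor. The next highest per length was Syt8 (mean 12.0 RPKM), and Syt1 exceeded it 3.56- to 6.42-fold in RPKM in all 6 tumors. Syt13 followed at 4.60 and Syt11, a form that does not sense calcium, at 1.93 RPKM. None of the 12 passed adjustment with edgeR, and at an unadjusted p under 0.05 there were 3 with higher and 1 with lower values in the FSP1-Cre;NT3 line. Syt7, the sensor of lysosome and slow vesicle fusion, was at 4.68, 5.87 and 4.76 CPM in Osx-Cre;NT3 and at 10.1, 11.5 and 16.9 CPM in FSP1-Cre;NT3 tumors. The lines did not overlap, with a log2 fold change of 1.33 (SE 0.30, adjusted p = 0.432 with edgeR and 0.00454 with DESeq2). Syt15 was likewise higher (log2 fold change 1.73, adjusted p = 0.432 with edgeR and 0.00227 with DESeq2). Syt8 was lower in both perineal tumors (14.6 and 9.04 CPM) than in trunk tumors 13, 18, 25 and 29 (25.4, 24.9, 40.1 and 22.2 CPM), with a log2 fold change of -1.26 (SE 0.36, adjusted p = 0.306 with edgeR and 0.0292 with DESeq2). By line it did not overlap either, and was lower in FSP1-Cre;NT3 (log2 fold change -0.98, SE 0.38, adjusted p = 0.458 with edgeR and 0.218 with DESeq2).

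The neuronal partners of Syt1 were scarce. Snap25, the neuronal SNARE on which synaptotagmin 1 acts, was at 0.039 to 0.331 CPM in 5 tumors and at 3.19 CPM in tumor 36. The SNAREs of non-neuronal cells led the vesicle fusion list, with Vamp8 at a mean of 651, Stx4a at 53.7 and Vamp3 at 43.6 RPKM. Of 21 genes of that list tested, edgeR called 0 in either comparison (4 higher and 2 lower by line, and 2 and 1 by site, were at an unadjusted p under 0.05). DESeq2 called 1 in each, Unc13d, a priming factor of secretory granules. Unc13d was at 6, 7.07 and 5.63 CPM in Osx-Cre;NT3 and at 13.5, 9 and 14.5 CPM in FSP1-Cre;NT3 tumors (adjusted p = 0.0476 by line and 0.04 by site with DESeq2, and 0.458 and 0.312 with edgeR). Summed over 10 neuron markers the level was 11.7 to 17.5 CPM in 5 tumors and 32.8 CPM in tumor 36, where Syt1 was lowest. Rbfox3, Elavl3 and Elavl4, which define neurons, stayed under 1 CPM in every tumor. The 7 Merkel and neuroendocrine markers summed to 5.01 to 19.2 CPM, and to 450 CPM in tumor 36, most of it Krt20 at 399 CPM. Chgb, Atoh1, Chga and Isl1 were also highest there, at 16.9, 9.22, 8.63 and 5.78 CPM, and DESeq2 called Krt20, Chgb, Chga and Isl1 by site (adjusted p = 0.000836, 0.000136, 0.00561 and 0.00032; edgeR 0 calls) and Isl1 by line (adjusted p = 0.00923). Sox2, of the same list, stayed under 1 CPM in every tumor. These genes were named after their values were seen. The 6 Schwann cell markers summed to 81.7 to 149 CPM, most of it Mbp, and Sox10 did not exceed 2.06 CPM.

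Cdhr1 likewise had no photoreceptor company. The 14 photoreceptor markers summed to 6.84 to 12.2 CPM, and 11 of them, with Prph2 and Crx, were under 1 CPM in every tumor. Rom1, the highest of them, had a mean of 2.17 RPKM. Prom1 (prominin 1, a membrane protein that works with Cdhr1 in photoreceptor discs but is common in epithelia) was at 48.9, 121, 20.8, 24, 36.2 and 42.4 CPM in tumors 13 to 36. It was highest in tumor 18, where Cdhr1 was low, and per length Cdhr1 exceeded it in 5 of 6 tumors. The brush border relatives Cdhr5 and Cdhr2 reached 117 and 90.9 CPM in tumor 36 and stayed under 1 CPM elsewhere; Cdhr2 was named after its values were seen.

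Among the exostosins Extl1 had the highest mean and the widest range. Ext1 and Ext2, which form the polymerase of heparan sulfate, had means of 11.2 and 19.1 RPKM, and Extl3 and Extl2 of 7.97 and 4.84 RPKM. Extl1 exceeded Ext1, Extl2 and Extl3 in all 6 tumors, and Ext2 in 4, while in the low tumors 18 and 36 the RPKM ratio of Extl1 to Ext2 was 0.988 and 1.00. Ext2 itself varied only from 60.4 to 77.1 CPM. Of 24 heparan sulfate synthesis genes tested, 0 passed adjustment in either comparison with edgeR (adjusted p at least 0.263), with 1 at an unadjusted p under 0.05 in each. That gene, the sulfatase Sulf1, was named after its values were seen, and DESeq2 called it by site (adjusted p = 0.00231). The core proteins that carry these chains were abundant, with Sdc1 at a mean of 160, Gpc1 at 86.4 and Sdc4 at 50.6 RPKM, and of 11 tested 0 passed adjustment, while 4 were higher by line at an unadjusted p under 0.05 and DESeq2 called 1, Gpc6.

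Colq was found with little of its enzyme. Ache (acetylcholinesterase) was at 0.538 to 2.97 CPM, and per length Colq exceeded it 2.78- to 34.7-fold. Prima1, the membrane anchor of the same enzyme in brain, did not exceed 0.5 CPM, nor Chat, which makes acetylcholine, 0.156 CPM. Lrp4, the agrin receptor, led this list at a mean of 6.40 RPKM. Of 10 genes tested by line 0 passed adjustment with edgeR, 1 (Chrna1) was at an unadjusted p under 0.05, and DESeq2 called 0. By site DESeq2 called 1 of 11, the choline transporter Slc5a7 (adjusted p = 0.00243, and 0.263 with edgeR), which was at 2.34 CPM in tumor 36 and at most at 0.307 CPM elsewhere. Skeletal muscle markers summed to 46.3, 108 and 36.8 CPM in tumors 13, 18 and 25 and to 34.4, 124 and 388 CPM in tumors 27, 29 and 36. Colq was lowest in tumors 18 and 36 and highest in tumor 27, which had the lowest muscle sum. Tumor 29, with a sum of 124 CPM, had Colq at 25.5 CPM, and tumor 13, with a sum of 46.3 CPM, had it at 14.3 CPM. The part of muscle in the Colq values was not tested.

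Htra4 had the lowest mean of the 4 HtrA proteases. Htra1 had a mean of 69.9, the mitochondrial Htra2 of 14.1, Htra3 of 7.28 and Htra4 of 4.34 RPKM. In Osx-Cre;NT3 tumors Htra4 was slightly above Htra3, with RPKM ratios of Htra3 to Htra4 from 0.673 to 0.910, and in FSP1-Cre;NT3 tumors the ratio was 1.62 (tumor 29), 4.67 (tumor 27) and 6.35 (tumor 36). Htra3 was at 25.9, 24.2 and 14.3 CPM in Osx-Cre;NT3 and at 34.2, 34.8 and 53.3 CPM in FSP1-Cre;NT3 tumors (log2 fold change 0.92, SE 0.31, adjusted p = 0.458, edgeR). Htra1 was at 213, 298 and 151 CPM against 129, 140 and 148 CPM (log2 fold change -0.66, adjusted p = 0.458, edgeR). The lines did not overlap for either gene, in opposite directions.

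In the LPA pathway, the receptor Lpar1 had the same direction by line as Enpp2. It was at 11.1, 10.7 and 4.28 CPM in Osx-Cre;NT3 and at 26.4, 17.5 and 49.9 CPM in FSP1-Cre;NT3 tumors, without overlap (log2 fold change 1.84, SE 0.52, adjusted p = 0.458 with edgeR and 0.0287 with DESeq2). By site Lpar1 was also higher in both perineal tumors than in any trunk tumor (log2 fold change 1.80, SE 0.51, adjusted p = 0.307 with edgeR and 0.048 with DESeq2). Lpar6, the other receptor of similar level, was even across tumors (18.3 to 27.9 CPM, log2 fold change 0.01), and Lpar2 to Lpar5 had means of 0.568, 0.842, 0.230 and 1.48 RPKM. Among the ENPP family Enpp4 (15.0 RPKM) and Enpp5 (12.7 RPKM) had means near the 13.9 RPKM of Enpp2, with narrower ranges (46.2 to 124 and 28.8 to 50.9 CPM), and Enpp1 was at 1.90 RPKM. The phosphatases that degrade LPA, Plpp2, Plpp1 and Plpp3, had means of 29.8, 29.5 and 23.8 RPKM. Of 16 genes of the pathway tested by line, 3 (Enpp2, Lpar1 and Plpp3) were higher at an unadjusted p under 0.05, 0 passed adjustment with edgeR, and Lpar1 was the gene DESeq2 called.

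Spint1 was near its target protease in level. St14 (matriptase) had a mean of 33.4 RPKM, and the RPKM ratio of Spint1 to St14 was 1.01 to 1.78, highest in tumor 18, where St14 was lowest at 108 CPM. Spint2, the related inhibitor HAI-2, exceeded Spint1 5.08- to 8.79-fold in RPKM in all 6 tumors, with a mean of 307 RPKM. Neither partner passed the test by line with edgeR (adjusted p = 0.899 for St14 and 0.463 for Spint2). In the protease axis of 10 tested genes, 3 were higher by line at an unadjusted p under 0.05 (Prss8, Tmprss13 and Hgfac) and 0 passed adjustment with either tool, where DESeq2 gave no adjusted p for Hgfac. Hgfac was at 29.7 CPM in tumor 36 and under 1 CPM elsewhere, and DESeq2 called it by site (log2 fold change 4.67, adjusted p = 0.00253, and 0.288 with edgeR).

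**Figure D3:**
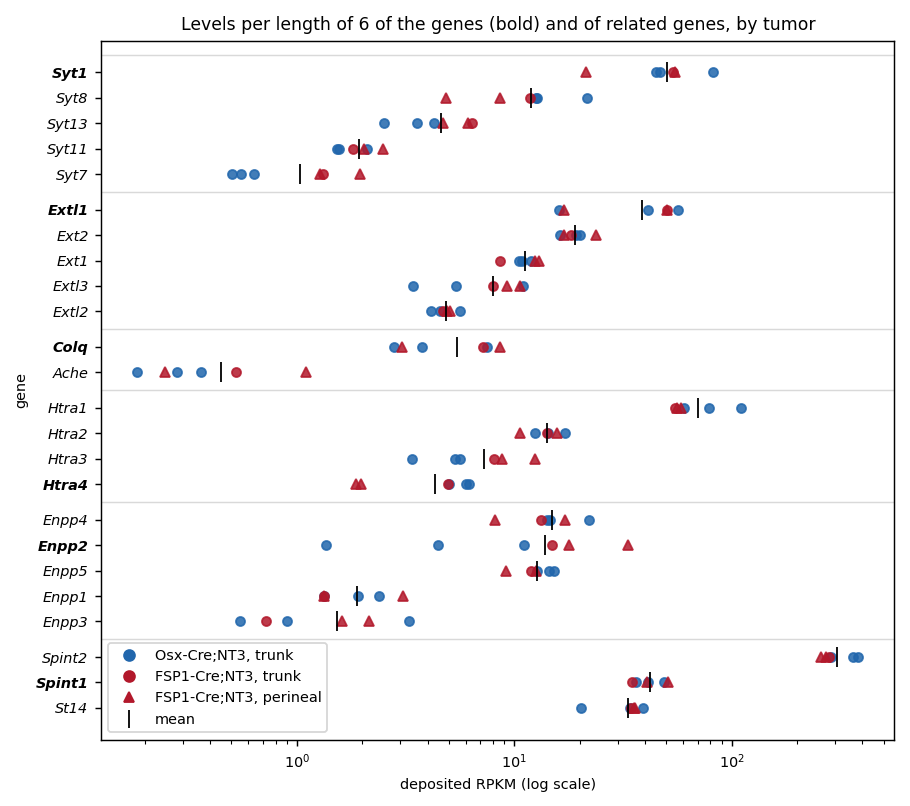
Deposited RPKM (x axis, log scale) in each tumor for 6 of the genes (bold) and their relatives or partners (y axis), coloured by Cre line, with triangles for perineal tumors and a black bar at the mean. Syt1 lies above every other synaptotagmin drawn, while Extl1 in tumors 18 and 36 comes down to the level of Ext2.

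Enpp2 and Htra4 were set beside markers of stroma and fat, which they did not follow in the same way. The 7 fibroblast markers, led by Col1a2 and Col1a1, summed to 4390, 3510 and 3720 CPM in Osx-Cre;NT3 tumors 13, 18 and 25 and to 7830, 10200 and 7730 CPM in FSP1-Cre;NT3 tumors 27, 29 and 36. All 7 had a higher estimate in FSP1-Cre;NT3, 6 of them at an unadjusted p under 0.05, and the lines did not overlap for the sum, as for Enpp2. Within the lines the order differed, since Enpp2 was highest in tumor 36, where the sum was lowest of its line, and in tumor 18, where it was lowest of the other. The 7 adipocyte markers, led by Fabp4, summed to 2.73, 13.6, 3.38 and 3.57 CPM in trunk tumors 13, 18, 25 and 29 and to 38.7 and 146 CPM in perineal tumors 27 and 36, and all 7 were higher at an unadjusted p under 0.05. Htra4 was low in just those perineal tumors, and Enpp2, known from adipocytes as well as fibroblasts, high. Endothelial markers summed to 145 to 521 CPM and macrophage markers to 1260 to 3030 CPM. The part of these cell types in the Enpp2 and Htra4 values was not tested.

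**Figure D4:**
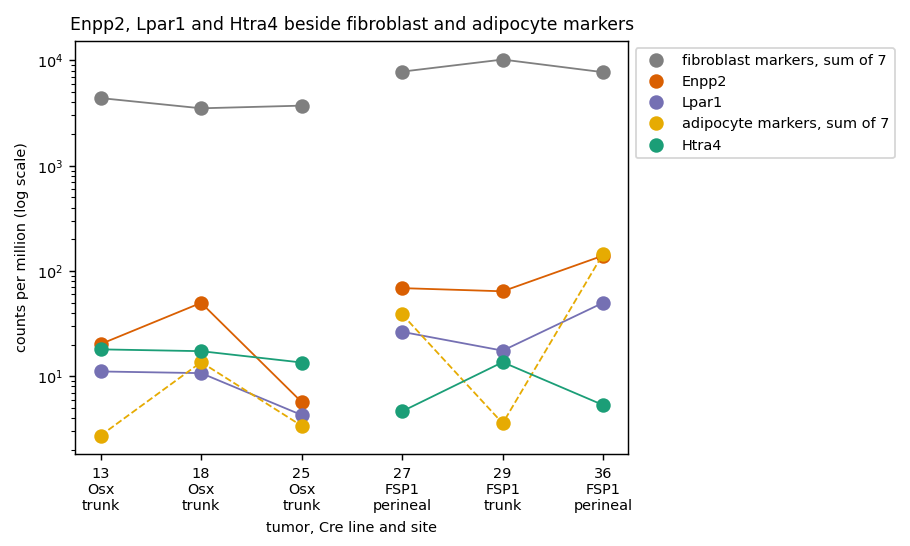
CPM (y axis, log scale) of Enpp2, Lpar1 and Htra4 and the summed fibroblast and adipocyte markers in each tumor (x axis), with lines joining tumors of the same Cre line. Enpp2, Lpar1 and the fibroblast sum are higher in all 3 FSP1-Cre;NT3 tumors, while Htra4 is low and the adipocyte sum high in perineal tumors 27 and 36.

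Some of the 7 genes ranked the tumors alike. Over the 21 pairs, correlated as log2 CPM over 6 tumors with exact two-sided permutation tests, Syt1 and Extl1 had the same rank order (Spearman's rho 1, p = 0.00278, adjusted p = 0.0584, and Pearson's r 0.753, p = 0.00139, adjusted p = 0.0292 over 21 pairs). Their order ran from tumor 25 through 29, 27, 13 and 18 to 36, and r was 0.775 without tumors 25 and 36, the 2 farthest from the median of Syt1. Extl1 and Colq had r = 0.888 (exact permutation p = 0.0139, adjusted p = 0.146; rho 0.771, p = 0.103, adjusted p = 0.525), which dropped to 0.58 without tumors 18 and 36. No other pair had an adjusted p under 0.05, by r or by rho. With the line means removed, r of Syt1 and Extl1 was 0.858, a value added after the data were seen. A two-sided exact permutation within lines gave p = 0.0278, the smallest that 36 orders can give. Because both genes rank the tumors alike, the observed order has the highest r of all orders by construction. This p therefore adds nothing to rho, and the same holds for the highest place of r over all 6 tumors. All values share the same libraries.

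**Figure D5:**
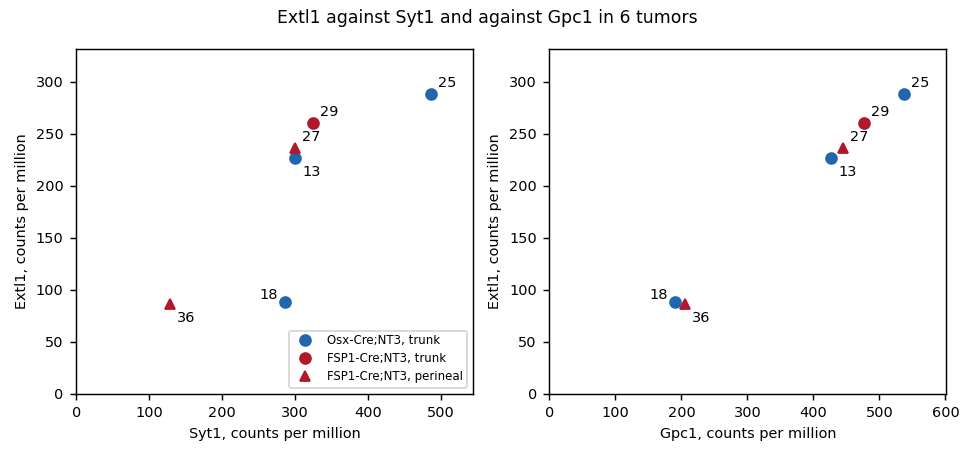
Extl1 (y axis, CPM, from 0) against Syt1 (left) and against Gpc1 (right, both in CPM) in the 6 tumors, labelled by number and coloured by Cre line. Extl1 lies near 87 CPM in tumors 18 and 36 and at 227 CPM or more in the other 4, and Gpc1 separates the same tumors while Syt1 in tumor 18 is close to its level in tumors 13 and 27.

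Of 14161 genes with a mean of at least 1 CPM, those most like each member over the 6 tumors (Pearson's r of log2 CPM, given as a description) came from varied families. For Syt1 they were Ccdc33 (r 0.9975), Ankrd24 (0.9919) and Sh3tc2 (0.9913). For Extl1 they were Cspg4 (0.9986), Gpc1 (0.9978) and Plscr3 (0.9951), among them 2 proteoglycan cores, the NG2 protein Cspg4 and the glypican Gpc1. Gpc1 was at 427, 190 and 537 CPM in tumors 13, 18 and 25 and at 445, 476 and 205 CPM in tumors 27, 29 and 36, so that tumors 18 and 36 were low as for Extl1. Enpp2 was most like Penk (0.9956), the enkephalin precursor, Serping1 (0.9948), the C1 inhibitor, and Vegfc (0.9946), a lymphatic growth factor. Htra4 was most like Kdsr (0.9814), Bcl2l15 (0.9775) and Meaf6 (0.9773), Cdhr1 like Rhbdl1 (0.9876), Glyctk (0.9855) and Clasrp (0.9846), Colq like F930015N05Rik (0.9973), Rapgef1 (0.9954) and Elac1 (0.9929), and Spint1 like Fut9 (0.9901), Ccdc127 (0.9876) and Rab33b (0.9819). With 6 points many genes come close by rank alone, and from 18 (Htra4) to 225 (Extl1) genes had r over 0.95.

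The other genes that the study showed beside these include the NF-κB genes and NIK. Map3k14, whose reads can come from the endogenous gene and from NT3, was at 54.7, 38.7 and 118 CPM in Osx-Cre;NT3 and at 103, 90.8 and 43.5 CPM in FSP1-Cre;NT3 tumors. It too was lowest in tumors 18 and 36. How many of all genes have these tumors lowest was not counted, and tumor 36 alone was the lowest for 23.8% of them. Nfkb2 was at 432, 308 and 583 CPM and at 471, 483 and 190 CPM in the same order, and Nfkbia at 867, 594 and 730 CPM and at 720, 769 and 355 CPM. Of 15 such genes tested by line, 0 passed adjustment and 0 were at an unadjusted p under 0.05 with edgeR, and DESeq2 called 0.

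The gene models limit some values. In GENCODE M21, Syt1 overlaps 3 other gene models, Colq 2, and Htra4 and Enpp2 1 each, among them Gm16933 on the strand opposite Htra4 and Gm26684 on the strand opposite Enpp2. Whether the counting used strand is not given in the sources used here, so reads of these partners cannot be told apart from those of Htra4 and Enpp2. Gm5136 and Gm47477 lie on the same strand as Syt1, and Gm24057 and Gm49387 on the same strand as Colq. Strand alone would not separate reads in stretches that these models share. Cdhr1, Extl1 and Spint1 overlap no other model.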

How the data were processed

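RNA of 6 tumors from female NT3 mice was sequenced from mRNA libraries. According to the methods of the paper, reads were trimmed, mapped on mm10 by HISAT2 (Galaxy 2.1.0) and summarised per gene by featureCounts, whereas the submitters' processing notes name TopHat2 2.0.6 and HTSeq. The authors deposited raw counts per gene, all even numbers, and deposited RPKM values, which were used here only to compare levels between genes. Gene annotation and strandedness are not given in the sources used here.

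The deposited counts were analysed with edgeR 4.0.16 in R 4.3.3 (filterByExpr, TMM, glmQLFit, glmQLFTest; Benjamini-Hochberg adjustment over 16415 genes by line and 16971 by site), with no covariate. CPM are TMM-scaled counts. Comparisons were by line (3 tumors of FSP1-Cre;NT3, 3 of Osx-Cre;NT3) and by site (2 perineal and 4 trunk tumors). The procedure was tested on simulated data. Alternatives were DESeq2 1.42.0, library sizes alone, upper-quartile scaling, other filters, halved counts, the other factor as a covariate, subsets, and leaving out each tumor. Further settings of DESeq2, with independent filtering off and with a tumor left out, were chosen after seeing the data. P-values measure the spread between tumors.

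The 7 members and the gene lists were chosen with earlier results of these data known. Of 246 list genes 244 were found, 1 of them is not reported here, and some were listed under older symbols (Stxbp3, Plpp1, Plpp2 and Plpp3 among the pathway genes). Named from the lists were the 3 genes of highest mean RPKM, any gene past adjustment with edgeR (there were 0), and partners and paralogs of members; for each member the 3 genes with the highest Pearson correlation to it on log2 CPM (2 prior counts) were named. Genes outside this rule are marked in the text or were named as defining or leading markers, or as those at an unadjusted p under 0.05, or called by DESeq2, after their values were seen. Promoters are from RefSeq, on GRCm38.p6, the same build as mm10. Intervals are 95% intervals from the edgeR fit.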

Additional observations from a re-analysis of the deposited data

How the results depend on the processing

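Of 294 recomputed log2 fold changes of the 7 genes, 251 kept their direction and their side of the threshold, 32 changed sign and 11 passed the threshold only under the alternative. The causes were not tested. By line, edgeR called 0 genes under every alternative, also without each tumor in turn (0 to 0), whereas DESeq2 called 420, or 412 without independent filtering. Without tumors 13, 18, 25, 27, 29 and 36 in turn, DESeq2 called 236, 499, 3650, 460, 731 and 196 genes. By site, edgeR called 0 genes, and 0 to 567 without each tumor in turn (567 without tumor 27), whereas DESeq2 called 605, or 598 without independent filtering, and 318, 649, 669, 1492, 731 and 14 without tumors 13, 18, 25, 27, 29 and 36.

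DESeq2 called Htra4 by site in each fit, including those without tumor 27 or 36, in which 1 perineal tumor is assumed to vary like the trunk tumors. Its log2 fold change there was -1.66 with and without independent filtering, and -1.59, -1.60, -1.74, -1.55, -1.72 and -1.78 without tumors 13, 18, 25, 27, 29 and 36. With edgeR it was not called under any alternative, with adjusted p from 0.126 to 1. DESeq2 also called Htra4 by line without tumor 29 (-1.72), Enpp2 by line without tumor 18 (2.79) and Syt1 by site without tumor 27 (-1.45). Without tumor 29 line and site are the same split, so that Htra4 call is the site call again, and the Syt1 call rests on 1 perineal tumor. With edgeR, Syt1 by site ran from -1.48 (without tumor 27) to -0.22 (without tumor 36).

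No fold change that changed sign passed adjustment. By line, Extl1 turned to 0.07 with library sizes alone, to 0.02 under upper-quartile scaling, 0.37 with site as a covariate, 0.37 in trunk tumors alone and 0.03, 0.28 and 0.28 with DESeq2 without tumors 13, 25 and 36, and it ran from -0.41 to 0.30 with edgeR without each tumor. Spint1 turned to 0.01 with library sizes alone. By site, Colq turned to -0.01 with DESeq2 with and without independent filtering, 0.00 without a filter on low counts, -0.41 with line as a covariate, -0.42 in FSP1-Cre;NT3 tumors alone and -0.12, -0.20 and -0.83 with DESeq2 without tumors 13, 18 and 27. With DESeq2, Cdhr1 turned to 0.08 and 0.22 without tumors 29 and 36, Extl1 to 0.09 without tumor 36, and Spint1 to 0.00 and -0.20 without tumors 29 and 36. With edgeR without each tumor in turn, Cdhr1 ran from -0.83 to 0.25, Extl1 from -1.34 to 0.13, Colq from -0.85 to 0.53 and Spint1 from -0.16 to 0.26.

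Ordered by CPM in place of RPKM, which leaves gene length in, Extl1 moved to place 2, Cdhr1 to 3 and Spint1 to 4. Mean levels kept within 1 SD of the reported value in 49 of 49 recomputations. Most of these left out 1 of the 6 tumors, which cannot move a mean by 1 SD, so they could not fail. The mean of Enpp2 ran from 41.7 to 68.6 CPM. No paired analysis was possible because the lines share no replicate numbers. With 3 tumors a line and 2 perineal tumors, small differences of these genes could not be resolved, and large ones could be missed. In the simulated data edgeR called 46.5% of 4-fold changes by line and 37.5% by site. Of 8-fold changes it called 69.5% by line and 68% by site.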
